A study of Mus musculus with 6 samples.

Results

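The CREB-driven immediate early genes are 10 genes that cyclic AMP (cAMP) and calcium switch on within minutes to hours in many cell types, namely Fos, Fosb, Junb, Nr4a1, Nr4a2, Nr4a3, Per1, Sik1, Crem and Ier2. They were taken by gene symbol from the 22298 genes of the expression table, where each was found once, and all 10 passed the filter on low counts that 12747 genes passed. Sequencing was of total RNA of the MIN6 line, derived from a mouse insulinoma and widely used in place of the pancreatic β-cell, in 3 control samples and 3 samples labelled chronic epinephrine. In the study's scheme, exposed cells were kept in 100 nM epinephrine for 3 days and then without it for 2 days, while both groups shared the same RPMI medium. The day on which cells were collected for sequencing is not given in the sources used here, so whether RNA was taken in the presence of epinephrine or after its withdrawal is not known, and no sample of short exposure was among the 6. The methods describe the samples of a group as independent biological replicates, while the labels only number them and name no culture, so the p-values measure the spread between these samples.

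CREB is a transcription factor that binds the cAMP response element in front of its target genes and is switched on when protein kinase A, freed by cAMP, or calcium-dependent kinases phosphorylate it. Its coactivators, the CRTC proteins, enter the nucleus when cAMP and calcium rise. In β-cells, glucose and incretin hormones raise both signals, and epinephrine, acting through the α2A-adrenergic receptor, lowers cAMP. Immediate early genes are usually transcribed in short bursts without new protein synthesis, and several of their products feed back on the pathway: Crem encodes repressor forms that occupy the same DNA element, and Sik1 encodes a kinase that keeps CRTC proteins in the cytoplasm.

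Sequences before the transcript start are shown for Nr4a2, which was called, for its paralogs Nr4a1 and Nr4a3, and for Fos, which had the lowest fold change of the 10 genes. The cAMP response element was searched as TGACGTCA and its half-site as TGACG, on both strands, so that CGTCA is the half-site of the opposite strand and a full element holds both. The sequences are from RefSeq on GRCm38.p6, 5′ to 3′ on the gene's strand, and run from 250 bases before the RefSeq start to the last base before the start, or to the last base before the first GENCODE exon where that came sooner (98 bases for Nr4a3). They lie at chr2:57124004-57124253 (minus strand, Nr4a2), chr4:48045055-48045152 (plus strand, Nr4a3), chr15:101266596-101266845 (plus strand, Nr4a1) and chr12:85473640-85473889 (plus strand, Fos). Capitals mark the half-sites.
Nr4a2: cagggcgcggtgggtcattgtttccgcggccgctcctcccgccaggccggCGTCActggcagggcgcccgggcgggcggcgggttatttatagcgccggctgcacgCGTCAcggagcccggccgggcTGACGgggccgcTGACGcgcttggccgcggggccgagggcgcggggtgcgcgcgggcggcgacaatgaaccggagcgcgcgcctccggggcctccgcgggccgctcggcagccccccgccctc
Nr4a3: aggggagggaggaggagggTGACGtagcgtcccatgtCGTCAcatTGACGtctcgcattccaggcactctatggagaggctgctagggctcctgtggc
Nr4a1: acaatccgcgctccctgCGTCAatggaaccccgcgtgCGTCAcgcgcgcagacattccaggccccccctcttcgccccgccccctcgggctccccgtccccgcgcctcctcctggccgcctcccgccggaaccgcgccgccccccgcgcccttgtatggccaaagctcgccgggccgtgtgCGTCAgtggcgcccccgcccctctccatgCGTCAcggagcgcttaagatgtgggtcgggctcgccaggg
Fos: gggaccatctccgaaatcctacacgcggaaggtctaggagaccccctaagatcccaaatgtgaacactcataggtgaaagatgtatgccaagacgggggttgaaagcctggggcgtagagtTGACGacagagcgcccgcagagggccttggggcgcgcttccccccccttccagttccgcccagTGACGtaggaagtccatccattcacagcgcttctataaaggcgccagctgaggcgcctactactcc

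The 250-base windows of Nr4a1, Nr4a2 and Nr4a3 held 4 half-sites each, and that of Fos held 2. Windows were found for 7 of the 10 genes, with 2 starts for Per1, and not for Crem, Sik1 and Ier2. Each of the 8 windows held at least 1 half-site, against 17.8% of all 32851 windows in the table and 26.3% of the 13051 windows of tested genes. Windows with 2 or more half-sites were 4 of 8, against 6.85% of those of tested genes. The genes were listed as CREB-driven beforehand, so these shares do not test CREB control in these samples. The full element was in 0 of the 8 windows and in 2.63% of the windows of tested genes. The half-site contains CG, and the median GC content was 65.2% in the 8 windows and 60.0% in those of tested genes. The 98 bases shown of Nr4a3 hold 3 of its 4 half-sites, and the Nr4a1 window lies inside the annotated gene, before an internal start.

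**Figure D1:**
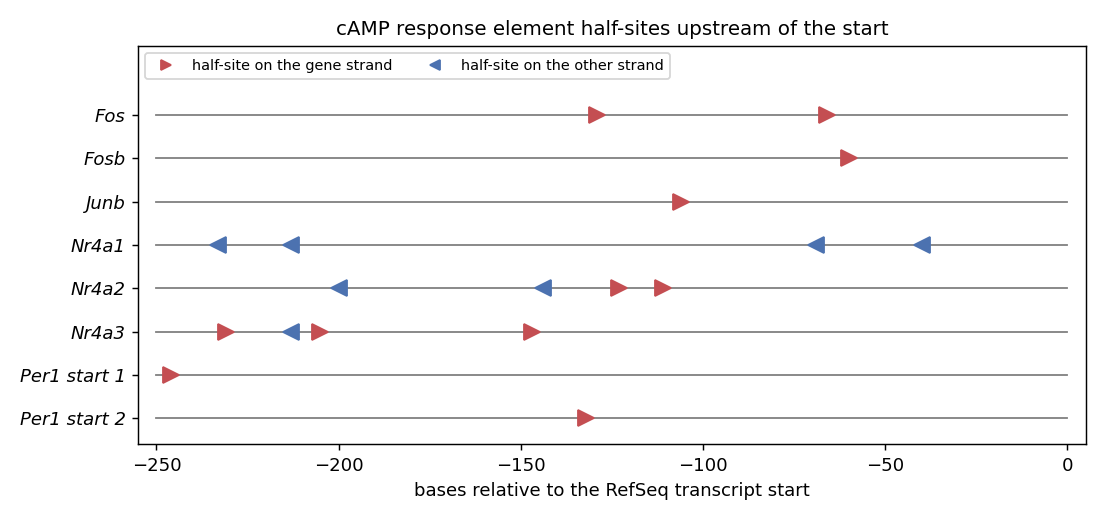
Position of each half-site (first base, x axis in bases relative to the RefSeq transcript start) in the 250 bases before the 8 annotated starts of 7 genes, with the strand given by the direction of the arrowhead. Nr4a1, Nr4a2 and Nr4a3 each hold 4 half-sites, Fos holds 2 and the others hold 1 for each start.

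The 6 samples held totals of 15017065 to 18127171 expected counts, with which a gene at 0 counts could have held up to 3, or at most 0.20 CPM (counts scaled to the library total), counting error only. All 12 β-cell markers were detected in every sample, and 10 of them had a fitted log2 fold change below 0 after epinephrine, against 6436 of the 12747 genes tested. Of the 10 markers below 0, 2 were called lower, Ins1 at -0.50 (adjusted p = 0.0152) and the glucose transporter gene Slc2a2 at -0.76 (adjusted p = 0.00434) on the log2 scale. Control 1 was the highest sample for Pdx1, Nkx6-1, Pcsk2 and Chga and the lowest for G6pc2, and signs without it are not given here. Control 1 stood apart from the other samples, with Pearson's r across genes of log2 CPM between 0.974 and 0.979 to each of them, against 0.985 to 0.993 between all other pairs. Of 16 hepatocyte markers, the summed FPKM (the authors' unit, which scales fragments to transcript length and depth) was 49.2 and 117 in controls 2 and 3, where none was at 0. It was 7.60 in control 1 and between 8.80 and 9.39 after epinephrine, where 6 or 7 of the markers were at 0. Albumin (Alb) alone was at 16.7 and 40.3 FPKM in controls 2 and 3 and at 0.10 to 0.22 in the other 4 samples. Markers of other islet cells (8 genes) had sums of 219 to 247 FPKM in controls and of 426 to 463 FPKM with epinephrine, mostly from Gcg, called higher at 1.02 on the log2 scale (adjusted p = 0.00199), as was Etv1 at 0.59 (adjusted p = 0.00853), while Hhex was at 0.04 or less. Leukocyte markers (10 genes) had sums of 0.53 to 1.91 FPKM in controls and 2.37 to 3.16 FPKM with epinephrine, without overlap. Cd68 alone, at 0.28 to 0.60 against 1.75 to 2.73 FPKM, separated the groups, which overlapped for the sum of the other 9 markers, and it was called higher at 2.39 on the log2 scale (adjusted p = 0.00906), while Ptprc was at 0.09 FPKM or less. Exocrine and fibroblast markers had sums of at most 1.06 and 6.38 FPKM in any sample. The part of these cells or of control 1 in the results was not tested, and calls of the 10 genes without these samples are given below. In these bulk samples a lower level in every cell and fewer cells with the transcript cannot be told apart.

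Of the 10 genes, Nr4a2 and Sik1 were upregulated after chronic epinephrine in the quasi-likelihood test of edgeR (adjusted p under 0.05), at 1.75-fold and 1.64-fold, and none was downregulated. Among all genes tested, 2.02% were called higher and 0.612% lower by the same rule. Crem and Nr4a3 had fold changes of 1.54 and 1.61 that did not pass, although their lowest epinephrine sample exceeded the highest control. Fos, Junb, Ier2, Nr4a1 and Fosb had fold changes between 0.873 and 1.10, and the direction of Per1 depended on which controls were used. None of the 10 passed the additional 2-fold threshold of the study, which 0.722% of the tested genes passed. An unadjusted p under 0.05 was reached by 4 of the 10, against 17.1% of all genes, and 5 of the 10 had no overlap between groups, against 27.3%. The epinephrine group lay wholly above the control group for 4 genes (14.3% of all genes) and wholly below it for Junb (13% of all genes).

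**Figure D2:**
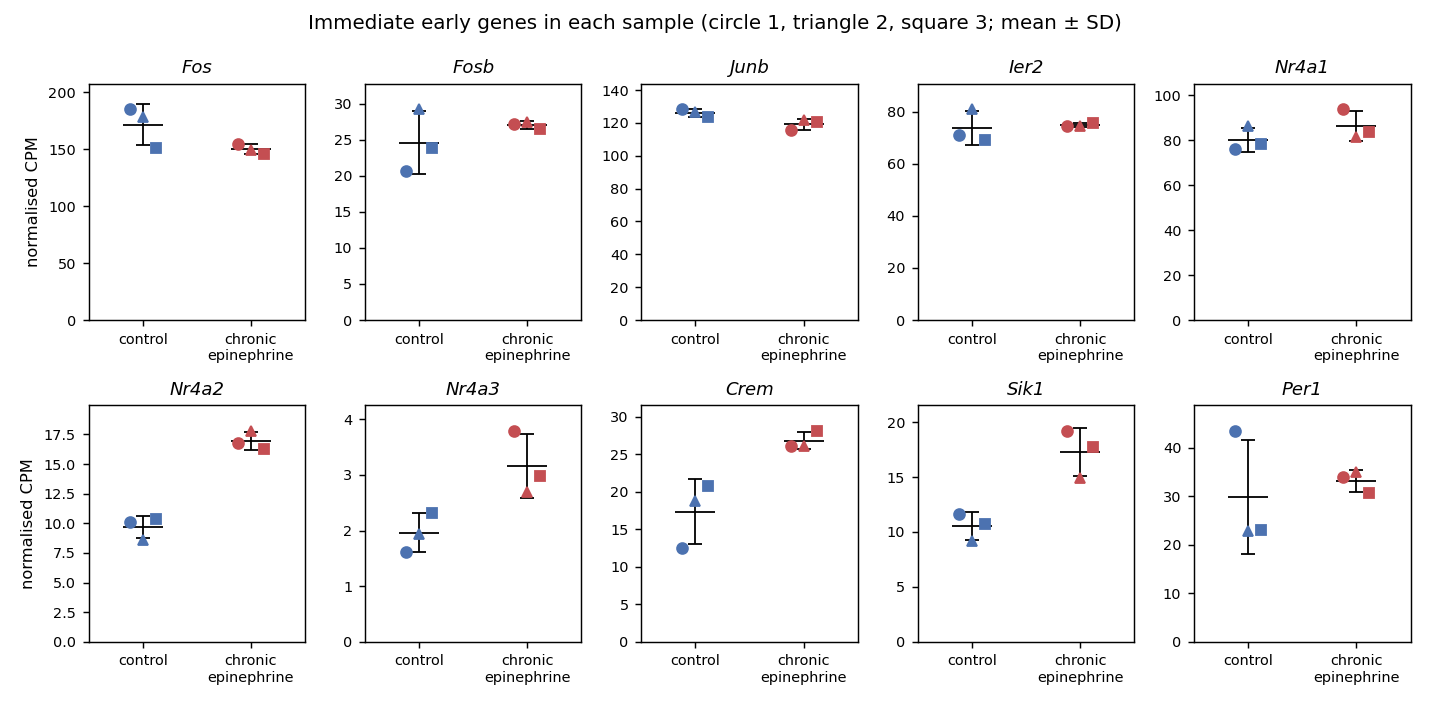
Normalised CPM (y axis, from 0) of the 10 genes in each control and chronic epinephrine sample, with circles, triangles and squares for samples 1, 2 and 3 and bars for mean ± SD. Nr4a2, Nr4a3, Crem and Sik1 lie higher in every epinephrine sample than in any control sample, and Per1 and Crem in control 1 lie far from the other controls.

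The NR4A genes encode orphan nuclear receptors (Nur77, Nurr1 and Nor1) that act without a known hormone and whose activity follows their transcription. Nr4a2 (ENSMUSG00000026826) lies on chromosome 2 of GRCm38 from 57106830 to 57124003. It was at 10.1, 8.63 and 10.4 CPM in controls 1, 2 and 3, and at 16.8, 17.8 and 16.3 CPM in the epinephrine samples. Every epinephrine sample was above every control, and the controls lay close together, control 1 included. The means were 9.71 ± 0.943 and 17.0 ± 0.791 CPM (SD, n = 3), which is 0.81 higher on the log2 scale (SE 0.11, 95% interval 0.55 to 1.07, adjusted p = 0.0101). By exact permutation of the samples p was 0.1 (two-sided), and no smaller p can be had with 3 samples against 3. Without control 1 the log2 fold change was 0.84 (adjusted p = 2.21e-06), in a fit where 21.6% of all genes were called. Leaving out control 2 or any epinephrine sample kept a log2 fold change of 0.72 to 0.84 with adjusted p from 0.05 (just above the threshold) to 0.0838, where 0.364% to 0.839% of all genes were called.

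Nr4a3 (ENSMUSG00000028341, chromosome 4 from 48045153 to 48086447) was the least abundant of the 10, with 25, 34 and 37 counts in the controls and 64, 48 and 45 after epinephrine. In CPM these were 1.62, 1.94 and 2.32 against 3.80, 2.69 and 2.98, so the groups did not overlap but lay close. Its log2 fold change was 0.68 with a wide interval of 0.16 to 1.20 (SE 0.23, adjusted p = 0.176). With limma it was 0.22 on the log2(FPKM + 1) scale and 0.57 on the log2(FPKM + 0.1) scale. Nr4a1 (ENSMUSG00000023034, chromosome 15 from 101254269 to 101274795) was at 76.1, 86.2 and 78.5 CPM in the controls and 94.0, 81.5 and 83.8 after epinephrine. Those ranges overlapped, and the log2 fold change was 0.11 (SE 0.09, interval -0.11 to 0.32, adjusted p = 0.611), or 0.04 without epinephrine 1, the highest sample.

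The ratio of 2 transcripts within a sample does not depend on how samples are scaled, and it was computed for the paralogs after their values had been seen. There were 0.122 ± 0.0188 Nr4a2 counts for each Nr4a1 count in the controls and 0.197 ± 0.0202 (SD, n = 3) after epinephrine. The ratio was higher in 3 of 3 epinephrine samples than in any control, by 0.70 on the log2 scale (exact permutation p = 0.1, the smallest possible). The ratio of Nr4a3 to Nr4a1 was 0.0244 ± 0.00443 in the control group and 0.0363 ± 0.00375 after epinephrine (SD, n = 3), again without overlap (exact permutation p = 0.1). The ratio of Nr4a2 to Nr4a3, at 5.06 ± 1.03 and 5.50 ± 1.10, overlapped (exact permutation p = 0.7). Including that of Fosb to Fos, 4 ratios were computed, and none can pass 0.05 before or after Benjamini-Hochberg adjustment.

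Sik1 (ENSMUSG00000024042, chromosome 17 from 31844250 to 31855804) encodes salt-inducible kinase 1, which phosphorylates CRTC coactivators and so restrains CREB. It was at 11.7, 9.20 and 10.8 CPM in the controls and 19.2, 14.9 and 17.7 CPM in the epinephrine samples, with no overlap. The log2 fold change was 0.71 (SE 0.14, interval 0.40 to 1.03, adjusted p = 0.0365; exact permutation p = 0.1). It was 0.79 without control 1 (adjusted p = 1.37e-05), where 21.6% of all genes were called. With any other sample left out it was 0.62 to 0.81 and its adjusted p lay between 0.0838 and 0.211. On the log2(FPKM + 1) scale the difference was 0.51 (adjusted p = 0.0824 with limma), a scale that understates changes of low genes, and on the log2(FPKM + 0.1) scale it was 0.66 and was not called either (adjusted p = 0.0904).

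Crem (ENSMUSG00000063889) lies on chromosome 18 from 3266048 to 3337748 and encodes activator and repressor forms of the cAMP response element modulator, among them the short inducible repressor ICER, which starts from an internal promoter. The counts are per gene and do not separate these forms (GENCODE M21 lists 39 transcripts of the gene). Crem was at 12.6, 18.7 and 20.8 CPM in controls 1, 2 and 3 and at 26.2, 26.2 and 28.2 CPM after epinephrine. The epinephrine samples were close together and above all controls, and control 1 was the lowest sample. The log2 fold change was 0.62 (SE 0.17, interval 0.23 to 1.01, adjusted p = 0.104; exact permutation p = 0.1). DESeq2, which called 5.07% of the genes to which it gave an adjusted p, called Crem as well as Nr4a2 and Sik1, at a log2 fold change of 0.62 (adjusted p = 0.0313). Without control 1 the log2 fold change was 0.44, smaller but with a narrower interval of 0.26 to 0.62 (adjusted p = 0.000575). In that fit 21.6% of all genes were called. The transcript length that count, FPKM and total together imply was 1127 ± 64.1 bases in the control group and 1092 ± 20.1 bases after epinephrine (SD, n = 3), a difference smaller than the spread of the control group. Exons of Crem overlap 472 bases of Gm6225 on the other strand, and whether reads were counted by strand is not given in the sources used here.

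Per1 (ENSMUSG00000020893, chromosome 11 from 69095217 to 69109960) encodes a repressor of the circadian clock and is a classical CREB target. It was at 43.5 CPM in control 1 and at 22.9 and 23.1 in controls 2 and 3, while the epinephrine samples were at 33.9, 34.9 and 30.6. The epinephrine group lay between the controls, and the log2 fold change was 0.15 (SE 0.23, interval -0.38 to 0.69, adjusted p = 0.779). Without control 1, where 21.6% of all genes were called, it was 0.53 (SE 0.08, adjusted p = 2.95e-05). Against control 1 alone, a fit that cannot measure the spread between controls, it was reversed, at -0.40. Without control 2 it was -0.01 and without control 3 it was 0.00.

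Fos, Fosb and Junb encode subunits of the AP-1 transcription factor, in which a FOS protein pairs with a JUN protein. Fos (ENSMUSG00000021250, chromosome 12 from 85473890 to 85477273) was at 185, 178 and 151 CPM in the controls and 155, 149 and 146 CPM after epinephrine. Control 3 lay among the epinephrine samples and the other controls above them, and the log2 fold change was -0.20 (SE 0.10, interval -0.42 to 0.03, adjusted p = 0.354). Against control 1 alone, a fit that cannot measure the spread between controls, the log2 fold change of Fos was -0.32. Without control 1 it was -0.14 (adjusted p = 0.107). Junb (ENSMUSG00000052837, chromosome 8 from 84974484 to 84978718) was at 128, 127 and 124 CPM in the controls and 115, 122 and 121 CPM after epinephrine. Its groups did not overlap, yet the difference was small, at -0.08 on the log2 scale (SE 0.08, interval -0.26 to 0.09, adjusted p = 0.628; exact permutation p = 0.1). Exonic bases of Junb, 173 in all, are shared with Prdx2 on the other strand.

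Fosb (ENSMUSG00000003545, chromosome 7 from 19302696 to 19310051) was at 20.7, 29.3 and 23.9 CPM in the controls and at 27.2, 27.5 and 26.4 CPM after epinephrine. The epinephrine samples fell within the range of the controls, and the log2 fold change was 0.13 (SE 0.13, interval -0.16 to 0.43, adjusted p = 0.646). Control 1 was the lowest sample, and against it alone, with no spread between controls measured, the log2 fold change was 0.38. Without control 1 it was 0.02 (adjusted p = 0.893). Without control 2, the highest sample, it was 0.27 (adjusted p = 0.290). For each Fos count there were 0.111, 0.164 and 0.158 Fosb counts in the controls and 0.176, 0.184 and 0.181 after epinephrine, which did not overlap (exact permutation p = 0.1). Ier2 (ENSMUSG00000053560, chromosome 8 from 84661331 to 84662852), an intronless gene for a small nuclear protein of the early growth response, was at 71.0, 81.0 and 68.9 CPM in the controls and 74.3, 74.5 and 75.7 CPM after epinephrine. Its difference, 0.02 on the log2 scale (SE 0.09, interval -0.18 to 0.23, adjusted p = 0.921), was within the spread between replicates. For Fos, Junb, Ier2 and Nr4a1 the intervals from all 6 samples allow changes of at most 0.42 in either direction, and for Fosb of at most 0.43.

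**Figure D3:**
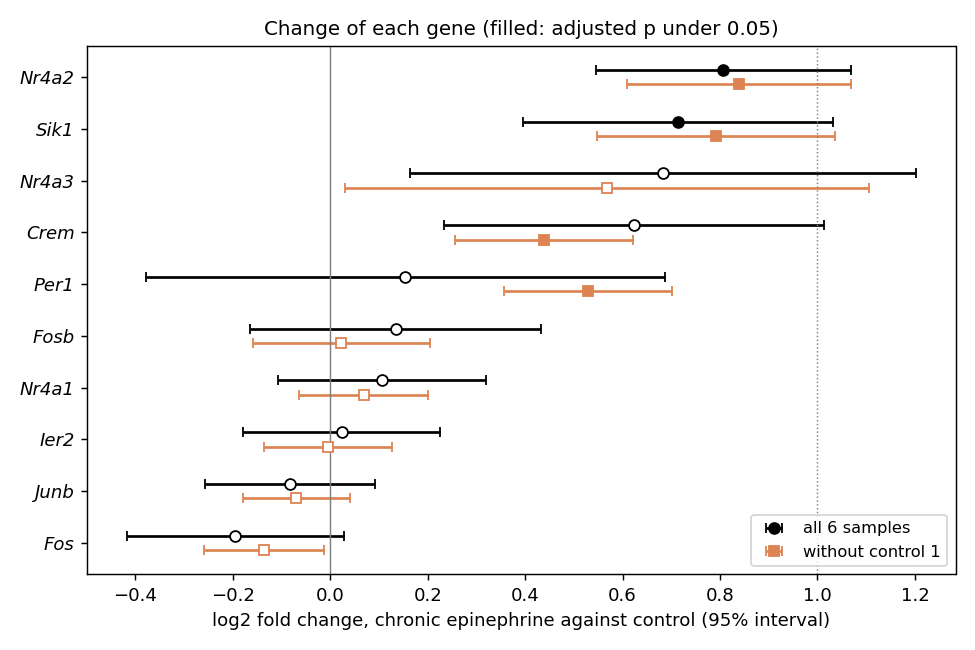
Log2 fold change of each gene (x axis) after chronic epinephrine against control with its 95% interval, from all 6 samples (black circles) and without control 1 (orange squares), filled where adjusted p is under 0.05 and with a dotted line at 2-fold. Nr4a2 and Sik1 are called in both, Crem and Per1 only without control 1, and the intervals of Fosb, Nr4a1, Ier2 and Junb include 0 in both. Of all genes tested, 2.63% were called with all 6 samples and 21.6% without control 1.

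Per length, the most abundant of these transcripts in the control group was Fos at 82.2 ± 9.85 FPKM, which overlapped Junb at 70.4 ± 2.53 FPKM (SD, n = 3). Ier2 at 48.7 ± 4.19, Nr4a1 at 33.4 ± 1.30 and Crem at 15.5 ± 3.27 FPKM followed without overlap between neighbours. Per1 at 8.23 ± 4.48 FPKM overlapped both Crem above it and Fosb below it (6.83 ± 1.37 FPKM), with control 1 at 13.4 and controls 2 and 3 at 5.32 and 5.98 FPKM. Nr4a2 at 2.83 ± 0.328 and Sik1 at 2.35 ± 0.305 FPKM overlapped each other, and Nr4a3 was lowest at 0.347 ± 0.0503 FPKM. After epinephrine the order of the 10 means was the same and no neighbours overlapped, with Crem at 24.3 ± 0.757, Nr4a2 at 4.96 ± 0.166 and Sik1 at 3.79 ± 0.498 FPKM. The 2 genes called were among the 3 least abundant.

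Since control 1 stood apart and controls 2 and 3 held hepatocyte markers, the genes were also counted without each. Without control 1, 4 of the 10 genes were called (Nr4a2, Sik1, Crem and Per1, all higher), where 21.6% of all genes were called. Without controls 2 and 3, the samples with hepatocyte markers, 7 were called where 48.4% of all genes were, a fit chosen after seeing the data in which the lone control is assumed to vary like the other group. There Nr4a2, Sik1, Crem, Nr4a3 and Fosb were called higher, with log2 fold changes of 0.74, 0.55, 1.08, 0.95 and 0.38, and Fos and Per1 were called lower, at -0.32 and -0.40.

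Other immediate early genes, many of them driven by the serum response factor and ERK, made up a list of 35. Of these, 33 were found by symbol (Cyr61 and Ctgf were not) and 31 passed the filter. The median of their log2 fold changes was 0.13, beside 0.14 for the CREB-driven genes and 0.00 for all genes tested, with 23 higher and 8 lower. Without control 1 the medians were 0.15 and 0.25. Of these genes, 2 were called, both higher, where 2.02% of all genes were called higher. Plk2, a polo-like kinase induced by activity and stress, rose from 0.945 ± 0.134 to 3.30 ± 0.566 CPM (SD, n = 3), or by 1.80 on the log2 scale (SE 0.24, adjusted p = 0.00853), on only 14 to 66 counts. Atf3, a transcription factor of the CREB/ATF family that also answers to cellular stress, rose from 5.94 ± 0.238 to 10.2 ± 1.41 CPM, a log2 fold change of 0.77 (SE 0.14, adjusted p = 0.0292). Without control 1, 17 of the 31 were called, 13 higher and 4 lower, where 21.6% of all genes were. Without control 2 or any 1 of the epinephrine samples 0 were called, where 0.364% to 0.839% of all genes were. The calls of Plk2 and Atf3 were thus lost there.

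Further genes known to respond to cAMP or CREB numbered 25 on the list, and 21 passed the filter. Their log2 fold changes had a median of 0.22, with 17 higher and 4 lower. Of these, 5 were called, all higher, against 2.02% of all genes. Vgf, a granin-like peptide precursor of secretory granules, was at 160, 74.7 and 96.1 CPM in the controls and 251, 257 and 291 CPM after epinephrine. All epinephrine samples were above control 1, the highest control, and the log2 fold change was 1.27 (SE 0.24, adjusted p = 0.0340). Inhba, which encodes the activin βA subunit, was at 2.33, 2.51 and 3.19 CPM in the controls and 7.35, 6.84 and 5.62 CPM after epinephrine, a log2 fold change of 1.30 (SE 0.19, adjusted p = 0.0105). Ppargc1a, the transcriptional coactivator PGC-1α, rose from 3.85 ± 0.228 to 7.65 ± 0.447 CPM, a log2 fold change of 0.99 (SE 0.14, adjusted p = 0.00906). Cartpt, a neuropeptide precursor found in islets, rose by 0.86 (SE 0.15, adjusted p = 0.0248) and Pde10a, a phosphodiesterase that breaks down cyclic nucleotides, by 0.46 (SE 0.09, adjusted p = 0.0374) on the log2 scale. For each of these 5 genes the groups did not overlap, and each was also called without control 1, where 11 of the 22 genes then tested and 21.6% of all genes were called, 8 of the 11 higher and 3 lower. Among the lower was Pck1, a liver and kidney enzyme of glucose synthesis, at 0, 14 and 29 counts in controls 1, 2 and 3 and 0, 0 and 2 counts after epinephrine, high in the same samples as the hepatocyte markers. With other samples left out most of these calls were lost, where 0.364% to 1.48% of all genes were called. The count was 0 without epinephrine 1 or 2, 1 without control 2 or epinephrine 3 and 3 without control 3. The replicate block called 3 (1.4% of all genes called) and limma on either log2 FPKM scale 2 (2.06% and 2.03% of all genes called).

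**Figure D4:**
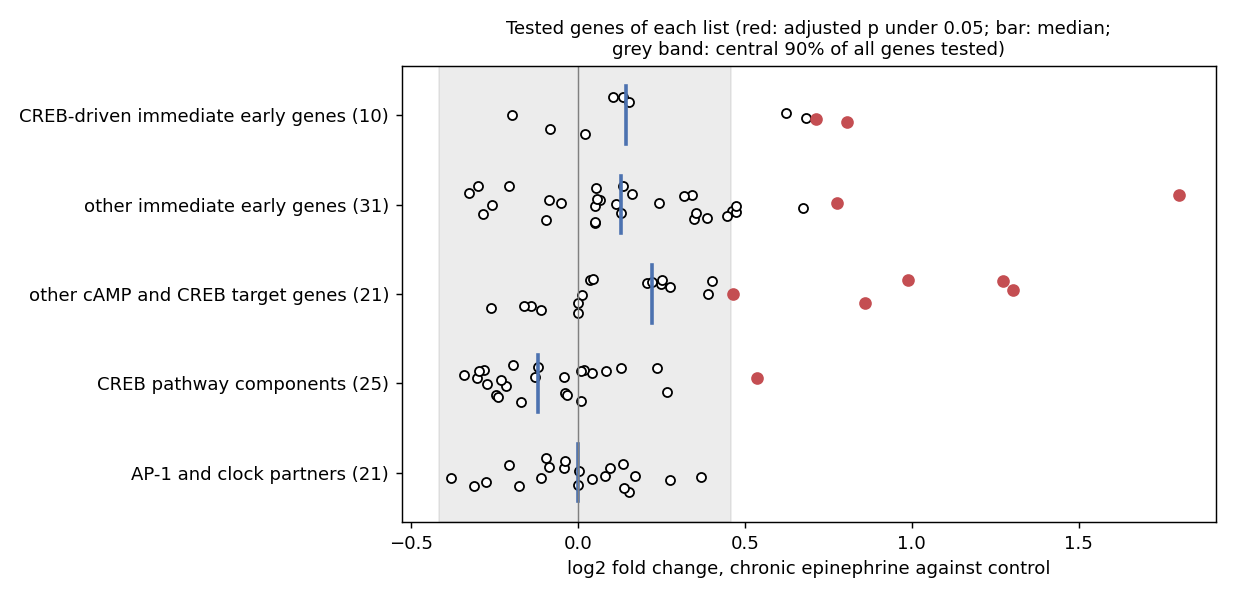
Log2 fold change (x axis) of the tested genes of each list after chronic epinephrine against control, in red where adjusted p is under 0.05, with a blue bar at the list's median and a grey band from -0.42 to 0.46 that holds the central 90% of all genes tested. The 4 highest of the 10 CREB-driven immediate early genes and the called genes of the other lists lie to the right of the band, and the other 6 lie within it.

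The components of the pathway itself made up a list of 25, all of which passed the filter, and their log2 fold changes had a median of -0.12, with 9 higher and 16 lower. Without control 1 the median was -0.02, with 12 higher and 13 lower. With edgeR on all 6 samples only Prkar1a was called, where 2.63% of all genes were, and with DESeq2 3 of the components were, where 5.07% of all genes were. It encodes the type I regulatory subunit that holds protein kinase A inactive until cAMP binds, and it was at 1092, 1159 and 1135 CPM in the controls and 1653, 1590 and 1670 CPM after epinephrine, a log2 fold change of 0.54 (SE 0.08, adjusted p = 0.0108) without overlap. Creb1 and the coactivator genes Crtc1, Crtc2 and Crtc3 were not called (adjusted p = 0.320, 0.668, 0.888 and 0.594). Without control 1, 10 of the 25 were called, 4 higher and 6 lower, where 21.6% of all genes were, and Creb1 was among the lower, at -0.24 (adjusted p = 0.00371), while the Crtc genes were not called. With the replicate block, without control 2 or without any 1 of the epinephrine samples 0 were called. The call of Prkar1a was thus lost there, where 0.364% to 1.4% of all genes were called. Partners of AP-1 and of the clock made up a list of 27, and 21 passed the filter, with 0 called with edgeR, 4 of them at an unadjusted p under 0.05 (17.1% of all genes), with a median log2 fold change of 0.00. Of the 27, Jun, Jund, Fosl1 and Fosl2 were also on the list of other immediate early genes, and Per2 on that of cAMP and CREB targets. Jun and Per2 were among the 4. The smallest p-values were those of Per3, a clock repressor at -0.31 (SE 0.11, adjusted p = 0.188), and Rxra, a nuclear receptor partner at -0.38 (SE 0.14, adjusted p = 0.203). DESeq2 also called none in that list, and without control 1 it was 5 of 21, near the 21.6% of all genes, 3 higher and 2 lower, with Per3 at -0.32 (adjusted p = 0.00237) and Rxra at -0.20 (adjusted p = 0.0145).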

How the data were processed

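Total RNA of 6 MIN6 cell samples was sequenced on an Illumina instrument. Per gene and per sample, the authors deposited expected counts (estimates not normalized between samples, of which 8.34% were not whole) and FPKM values. The submitters' processing notes name the build GRCm38, and the aligner, counting tool, annotation and strand setting are not given in the sources used here. The members and lists were chosen with earlier results of these data known.

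Expected counts were rounded, genes were filtered by filterByExpr, scaled by TMM and tested with edgeR 4.0.16 (R 4.3.3; quasi-likelihood F-test), with group as the single term. Benjamini-Hochberg adjustment was over all genes tested, and a gene was called at adjusted p under 0.05. SE is the log2 fold change over the square root of F. CPM are TMM-normalized, and log2 CPM used a prior count of 2. The code was tested on simulated data. Named genes were the 10 members and, of each other list, the called genes (at most 5) or, where none was called, the 2 with the smallest p-value, and Creb1, the Crtc genes and Pck1, named after their values were seen. Per list, counts and medians were computed without a set test. Alternatives were other scalings (DESeq2 1.42.0 size factors, upper quartile, library size), the DESeq2 Wald test, no filter or 10 counts in every sample, limma 3.58.1 on log2 FPKM with 1 or 0.1 added, replicate number as a block, and each sample left out. Positions are from GENCODE M21 on GRCm38, which held 22255 of 22298 identifiers. Of 50-base transcript windows, at most 0.33% were shared with other genes for the 10 members and the genes that the rule named.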

Additional observations from a re-analysis of the deposited data

How the results depend on the processing

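Of the 10 genes, 2 were called. It was 1 with limma on log2(FPKM + 1) or log2(FPKM + 0.1), where 2.06% and 2.03% of all genes were called, against 2.63% with edgeR. With a sample left out it was 0 to 4, and where it was 0, 3 to 5 of the 10 had an unadjusted p under 0.05. It was 4 without control 1 (21.6% of all genes called), 1 without control 3 (1.48%) and 0 without each of the other 4 (0.364% to 0.839%). It was 7 without controls 2 and 3, a setting chosen after seeing the data, where 1 gene passed the 2-fold threshold. All genes called were 335, against 729 with DESeq2, 178 with the replicate block, 47 to 2798 with a sample left out and 6362 without controls 2 and 3. Other immediate early genes called were 2, against 4 with DESeq2, 1 with the replicate block, 0 to 17 with a sample left out and 15 without controls 2 and 3. Other cAMP and CREB target genes called were 5, against 2 with limma at either pseudocount, 3 with the replicate block, 0 to 11 with a sample left out and 9 without controls 2 and 3. Pathway components called were 1, against 3 with DESeq2, 0 with the replicate block, 0 to 10 with a sample left out and 15 without controls 2 and 3. AP-1 and clock partners called were 0, against 5 without control 1 and 10 without controls 2 and 3. The replicate block called the same 2 members. The same-numbered samples deviated from their group means with correlations of 0.0502, 0.0677 and -0.0488 across genes and were not treated as pairs. Ier2 was reversed with library size only (-0.0035), without control 1 (-0.0037) and without control 3, and it ranged from -0.0229 to 0.0901 with a sample left out. Per1 ranged from -0.0142 (reversed, without control 2) to 0.53 with a sample left out, and was reversed without controls 2 and 3 (-0.40). The other 8 genes kept their direction in all 15 alternatives given with the methods. The cause of these shifts was not tested. Relative counting error is largest for Nr4a3, which had the fewest counts of the 10 genes (25 to 64 in a sample).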

Other observations

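The transcript length implied by count, FPKM and sample total was constant to within 0.178% of its mean over the 6 samples for Fos, Junb, Ier2 and Sik1. It ranged over 5.41% to 7.23% for Nr4a1, Nr4a2, Nr4a3 and Fosb, over 11.4% for Crem and over 28.2% for Per1, against a median of 3.12% and a 95th percentile of 27.2% over 11180 genes at an FPKM of 1 or more in every sample, of which 2722 ranged over more than 10%. For Per1 it was 3342, 4318 and 3842 bases in controls 1, 2 and 3 and 3289, 4367 and 3765 bases in epinephrine samples 1, 2 and 3, so that samples of the same number lay close together in both groups. Across those genes the deviations of same-numbered samples correlated at only 0.0542, 0.0349 and 0.0344. Per1 in epinephrine 2 had the highest CPM of its group and the lowest FPKM (34.9 CPM and 7.87 FPKM, against 33.9 CPM and 10.2 FPKM in epinephrine 1).

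Of the other immediate early genes, 13 had an unadjusted p under 0.05 and were not called, 8 higher and 5 lower, where 17.1% of all genes tested had an unadjusted p under 0.05, called genes included. Examples were chosen after their values were seen. Myc, Ier3, Klf4, Maff and Npas4 had log2 fold changes of 0.47, 0.48, 0.45, 0.46 and 0.34 (adjusted p between 0.0552 and 0.150). Btg1, Klf10, Btg2, Egr1 and Jun had log2 fold changes of -0.33, -0.28, -0.26, -0.30 and -0.20 (adjusted p between 0.0920 and 0.285). Egr1 was at 782 CPM in control 1 and at 606 and 586 CPM in controls 2 and 3. Without control 1 its log2 fold change was -0.16 (adjusted p = 0.0184, called lower), where 21.6% of all genes were called.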
